A study of Oryza sativa with 10 samples.

Results

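The regions described here are 7194 stretches of the rice genome that carried a peak of trimethylated histone H3 lysine 36 (H3K36me3) in the F1 hybrid GL×93-11 and in both of its parents, GL and 93-11. They were found by merging the peak lists of these 3 leaf libraries wherever peaks shared at least 1 bp, which gave 12436 merged regions, and keeping those with a peak in all 3 lists (57.8%). The merged H3K36me3 and H3K27me3 regions of all 5 genotypes in the series number 26760. For each region the question was whether the hybrid carried the mean of its parents, the mid-parent level, or departed from it.

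The study set out to find allele-specific histone marks in hybrid rice. It compared the crosses GL×93-11 and GL×TQ, as F1 plants, with their inbred *indica* parents: GL, which is Guangluai-4, TQ, which is Teqing, and 93-11, also called Yangdao-6. All plants were field grown, and the second fully expanded leaf was taken while secondary panicle branches were forming. Leaves of 3 plots were pooled, so each genotype has 1 chromatin immunoprecipitation (ChIP-seq) library per mark, no difference below has a replicate error, and no p-value is given. The labels name no transgene and no treatment for any of the 5 genotypes, and the reads of these *indica* plants were mapped to Nipponbare, a *japonica* variety.

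Plants place H3K36me3 along gene bodies during transcription, through methyltransferases of the SDG family, and the mark is known from active genes. H3K27me3, the other mark of the series, belongs to the Polycomb system and is known from silenced genes. In an F1 nucleus each parent contributes one set of chromosomes, so a mark that each set keeps at its parental level gives the mid-parent level in the sum, which is called additive.

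The level of a region was the tags of the list's called peaks in it per kb of merged region, scaled to 1000000 tags in the list. Reads inside the region but outside a list's called peak were not counted. Where peak widths differ, the tags and their intervals therefore cover unequal stretches. The peak lists held 10136 peaks with 6266711 tags in GL×93-11, 9738 peaks with 7096067 tags in GL and 9714 peaks with 5364527 tags in 93-11. The shared regions held 74.9% of the tags of GL×93-11, 83.6% of those of GL and 71.7% of those of 93-11. A region had a median of 665 tags in GL×93-11, 846 in GL and 539 in 93-11, with no fewer than 65, 67 and 60 tags in these lists. The regions were 394 to 7300 bp long (median 2959 bp), and 7157 of them consisted of exactly 1 peak in each list. Intervals on shares are 95% Wilson intervals and intervals on tags are exact 95% Poisson intervals, and both cover counting error only.

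GL×93-11 carried close to the mid-parent level of H3K36me3 at most of these regions. Its level lay near the parental mean, no more than 25% above and no more than 20% below it, at 6610 of 7194 regions (91.9%, 91.2% to 92.5%), and 584 regions (8.12%) lay farther away. Of these, 247 (3.43%, 3.04% to 3.88%) lay above both parents, 208 (2.89%, 2.53% to 3.30%) lay below both, and the other 129 stood between the parents but outside these limits, 53 on the higher and 76 on the lower side. Across all regions the median log2 ratio of the hybrid to the mid-parent level was -0.051, with quartiles of -0.13 and 0.042, and the extremes were -1.44 and 1.33. The median level was 36.2 in GL×93-11, against 40.5 in GL and 34.3 in 93-11. In bulk leaf chromatin, fewer cells with the mark and less of the mark per cell cannot be told apart.

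The balance of the departures depended on the library total, and also on the fold limit and the measure of level, as given at the end. When deviations of any size were counted, GL×93-11 was above both parents at 926 regions (12.9%) and below both at 2279 (31.7%). With the tags in the shared regions as the total of each library, these shares were 23.7% above and 25.6% below, the median log2 ratio was -0.00026, and the regions outside the limits were 367 above and 153 below both parents. With the unique mapped reads of each library as total, 215 regions (2.99%) lay above and 238 (3.31%) below both parents outside the limits, the opposite order. GL exceeded 93-11 at 5869 regions (81.6%), with a median log2 ratio of GL to 93-11 of 0.20, and this offset was -0.017 with the tags in the shared regions as total. The share near the mid-parent level was 91.4% under that total.

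**Figure D1:**
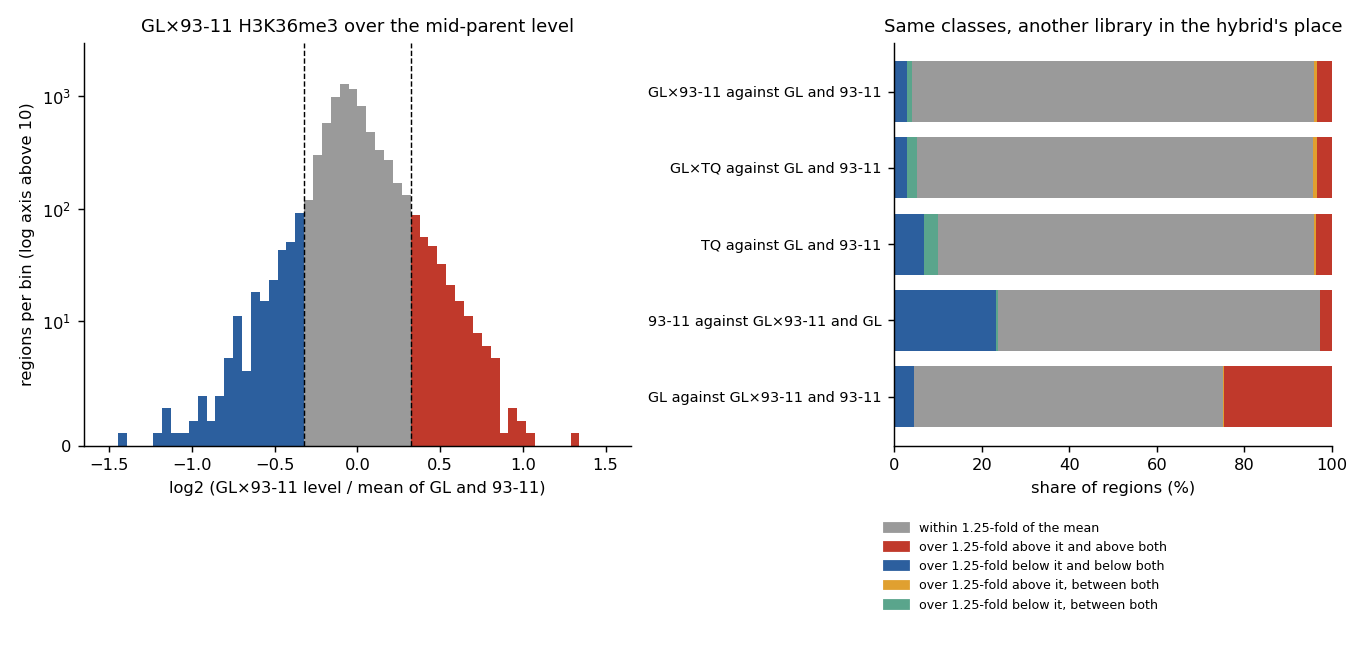
Left, number of regions (log axis above 10) by log2 of the GL×93-11 level over the mean of GL and 93-11, with dashed lines at the limits of 25% above and 20% below that mean, gray bins inside them, red bins above and blue bins below, whether or not the region lies outside both parents. Right, share of regions in each class when GL×93-11, GL×TQ, TQ, 93-11 or GL is set against the mean of a pair of libraries; gray takes 91.9% for GL×93-11 and 70.5% for GL.

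Libraries that do not descend from both varieties gave the scale for these shares. TQ, an inbred variety, lay near the mean of GL and 93-11, by the same limits, at 86.0% of 7053 regions (85.2% to 86.8%), and GL×TQ, which has no 93-11 genome, did so at 90.6% of 7112 regions (90.0% to 91.3%). GL×TQ lay above both GL and 93-11 at 3.50% and below both at 2.97% of its regions by the same limits. When each parent took the place of the hybrid, 93-11 lay near the mean of GL×93-11 and GL at 73.5% of the 7194 regions, and GL lay near the mean of GL×93-11 and 93-11 at 70.5%. The median log2 ratio to those means was -0.13 for 93-11 and 0.18 for GL. The offset between GL and 93-11 moved with the library total, and these shares were not recomputed under another total. These comparisons share libraries and carry no test.

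The regions at which the parents differed show more of where the hybrid stood. GL was over 1.5-fold above 93-11 at 1037 regions, and on a scale with 0 at the lower and 1 at the higher parent the median position of GL×93-11 was 0.53 (quartiles 0.36 and 0.69). At the 143 regions at which 93-11 was over 1.5-fold above GL the median position was 0.73 (quartiles 0.52 and 0.97). GL×93-11 was nearer the higher parent at 54.7% of the first set (51.6% to 57.7%) and at 76.2% of the second (68.6% to 82.5%). Among the 143, GL×93-11 was outside the limits and above both parents at 33 and lay below both at 2, and among the 1037 these counts were 53 and 38. With the tags in the shared regions as library total, the sets held 547 and 299 regions and the median position was 0.68 in both, so the gap between the sets was not present under that total. Peak width was also a factor of these parental differences. At the 1037 regions the median width was 2464 bp in GL and 1502 bp in 93-11, and at the 143 it was 1387 bp and 2244 bp. With tags per kb of each list's own peaks as level, 112 and 40 regions differed over 1.5-fold, with a median position of 0.56 in both.

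**Figure D2:**
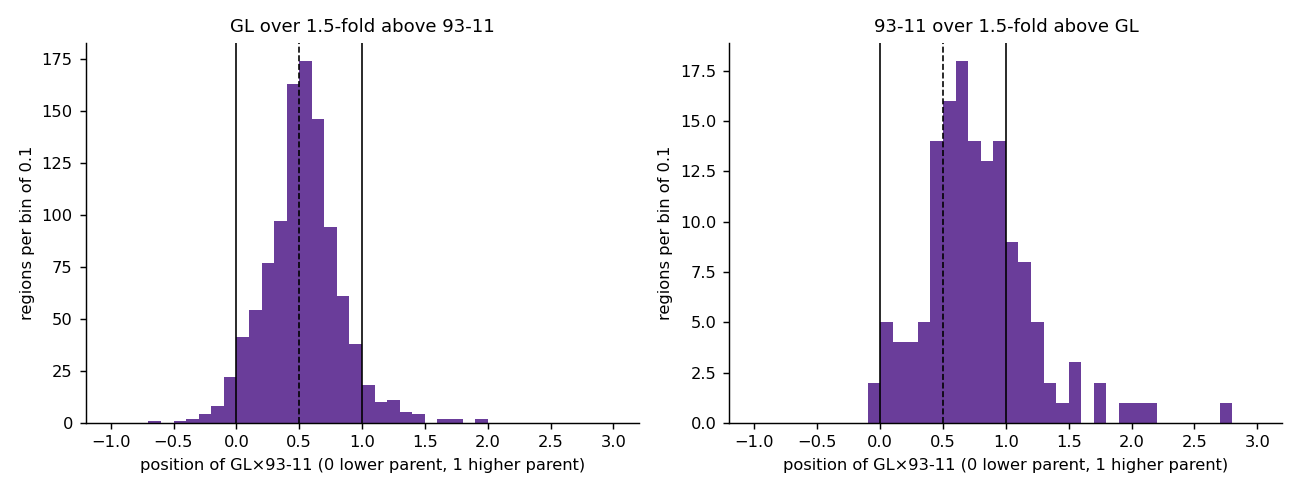
Number of regions by the position of GL×93-11 between its parents (0 at the lower and 1 at the higher parental level, dashed line midway), for the 1037 regions with GL over 1.5-fold above 93-11 (left) and the 143 regions with 93-11 over 1.5-fold above GL (right). The left histogram centres near the midpoint, with a median of 0.53, and the right one lies towards the higher parent, with a median of 0.73.

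Among regions with 1 peak and at least 100 tags in each list, the most unequal ones were intermediate in the hybrid. The parental ratio chose these regions, so the place of the hybrid between such extremes is a description. On chromosome 12 from 22478289 to 22481776, GL×93-11 had 418 tags, against 879 in GL and 123 in 93-11, which gave levels of 19.1, 35.5 and 6.57. The parental levels differed 5.40-fold there, and the level of the hybrid was 0.909 times their mean. The called peak was 2540 bp wide in GL×93-11, 3488 bp in GL and 793 bp in 93-11. Per kb of that called peak the scaled tags were 26.3, 35.5 and 28.9, so the parents differed less by this measure than in level. On chromosome 4 from 17319532 to 17322264 the levels were 28.4 in GL×93-11, 50.2 in GL and 9.89 in 93-11. In the other direction, on chromosome 2 from 17266182 to 17269592, GL×93-11 had 406 tags, against 163 in GL and 663 in 93-11, with levels of 19.0, 6.73 and 36.2. Here the level of 93-11 exceeded that of GL 5.38-fold, and the hybrid stood at 0.884 times the mean. The called peak was 1921 bp wide in GL×93-11, 1134 bp in GL and 3411 bp in 93-11. Per kb of called peak the scaled tags were 33.7, 20.3 and 36.2. Over the 5 regions most in favour of GL the ratio of the hybrid to the mid-parent level ran from 0.909 to 1.33, and over the 5 most in favour of 93-11 from 0.884 to 1.42. The highest of these ratios belonged to chromosome 5 from 4312050 to 4314559, with levels of 37.4 in GL×93-11, 10.6 in GL and 42.0 in 93-11, so that the hybrid stood near its higher parent.

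TQ often resembled one of the parents at the unequal regions, and the other hybrid then provides a side by side view from the same GL parent. At 194 regions with GL over 1.5-fold above 93-11 and TQ no more than 25% above or 20% below GL, the median place on a scale from 0 at the 93-11 level to 1 at the GL level was 0.54 for GL×93-11 (quartiles 0.38 and 0.74) and 0.73 for GL×TQ (0.52 and 0.90). At the 514 regions of this kind with TQ that close to 93-11 instead, the places were 0.49 for GL×93-11 (0.30 and 0.63) and 0.33 for GL×TQ (0.20 and 0.47). The place of GL×TQ thus moved with the TQ level, and that of GL×93-11 changed less between the sets. At 26 regions with 93-11 over 1.5-fold above GL and TQ close to GL the contrast was wider, with 0.27 for GL×93-11 (0.039 and 0.47) and 0.78 for GL×TQ (0.63 and 0.99). Where TQ matched 93-11 on that side (63 regions), the places were 0.24 for GL×93-11 and 0.26 for GL×TQ, both nearer to 93-11. Both hybrids share the GL library, which sets one end of the scale, and a region with TQ close to both varieties counts in both sets. Here and at the named regions, the TQ and GL×TQ levels count all tags of any of their peaks that touch the region. The length of the region divides them even where such a peak extends beyond it, so they can run higher than the levels of GL×93-11, GL and 93-11.

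**Figure D3:**
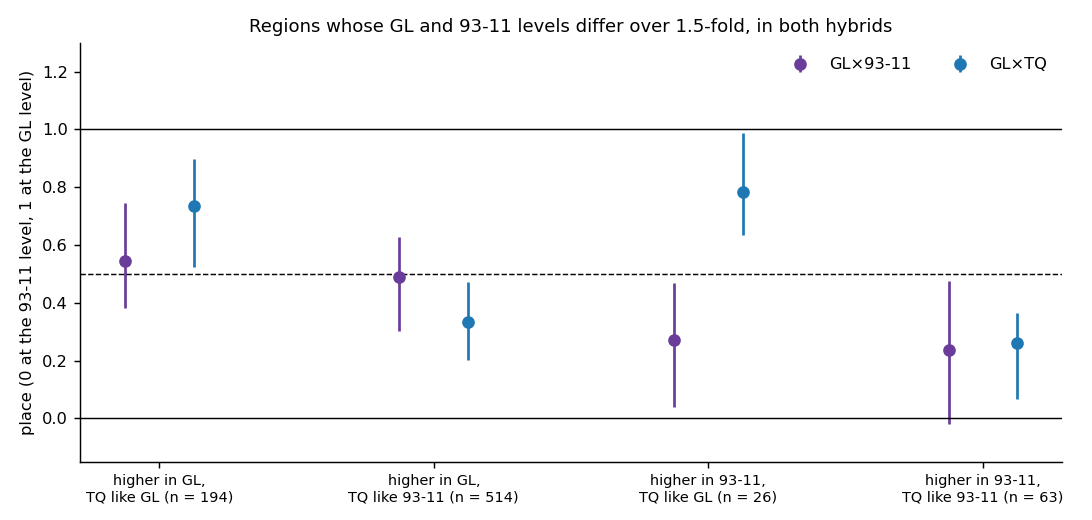
Median place (points) and quartiles (bars) of GL×93-11 and GL×TQ on a scale from 0 at the 93-11 level to 1 at the GL level, for regions whose GL and 93-11 levels differ over 1.5-fold, split by whether TQ is close to GL or to 93-11 (no more than 25% above or 20% below). GL×TQ lies at 0.73 and 0.78 where TQ is like GL and at 0.33 and 0.26 where TQ is like 93-11, and GL×93-11 lies at 0.54, 0.27, 0.49 and 0.24 in the same order.

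At the 247 regions in which GL×93-11 was outside the limits and above both parents, the median ratio to the mid-parent level was 1.37. The limit of 25% above the mean sets the lowest value this ratio can take. Among regions with 1 peak and at least 100 tags in each list, the largest excess over the higher parent lay on chromosome 1 from 21714114 to 21716076, with 323 tags in GL×93-11 (289 to 360), against 143 in GL (121 to 168) and 112 in 93-11 (92.2 to 135). The levels were 26.3, 10.3 and 10.6, so the parents were nearly equal and the hybrid stood 2.47-fold above the higher of them. The next, on chromosome 11 from 11889511 to 11891333, had 301 tags in GL×93-11, against 165 in GL and 143 in 93-11, a ratio to the higher parent of 1.80. All 3 genotypes also had an H3K27me3 peak over this region, the only one of the leading 10 with that mark. Of all regions, 9.56% had it in at least 1 of the 3 genotypes. On chromosome 6 from 30194741 to 30197035 the levels were 22.3 in GL×93-11, 12.5 in GL and 9.26 in 93-11, and on chromosome 3 from 15826351 to 15828024 they were 27.5, 15.4 and 13.9.

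Among the 10 regions that stood highest over the higher parent, the level was 22.3 to 30.4 in GL×93-11, 10.3 to 18.0 in GL and 9.26 to 17.9 in 93-11, without overlap between the hybrid and either parent. These levels chose the regions and are a description. Their ratios to the higher parent ran from 1.64 to 2.47, and their counting intervals stood apart from those of both parents in 10 of 10. All 10 had a peak in TQ and 9 had one in GL×TQ, and of all 7194 regions 94.9% and 95.9% had one. At 3 of those 9 the level of GL×TQ was outside the limits around the mean of GL and TQ, above both at 2 of them and below both at 1, on chromosome 1 from 14743564 to 14745759. Across the 7463 regions with a peak in GL×TQ, GL and TQ these shares were 1.88% above and 3.66% below. Those regions were merged from these lists, so no peak extends beyond its region, which can occur at the 10. The GL library helped to choose the 10 regions and is also in the mean of GL and TQ. Over all 247 regions above both parents, the interval of the hybrid stood apart from both parental ones at 98, and at the others it overlapped at least 1 of them. In all 7194 regions it stood above both parental ones at 103 (1.43%), 5 of which were near the mid-parent level.

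The regions in which GL×93-11 fell short of both parents had a median ratio to the mid-parent level of 0.735. Among regions with 1 peak and at least 100 tags in each list, the lowest against the lower parent lay on chromosome 6 from 10409098 to 10410937, with 117 tags in GL×93-11 (96.8 to 140), against 324 in GL (290 to 361) and 211 in 93-11 (183 to 241). The levels were 10.1, 24.8 and 21.4, and the hybrid stood at 0.475 times the lower parent. On chromosome 9 from 20271957 to 20274233 the levels were 9.74 in GL×93-11, 24.0 in GL and 18.7 in 93-11, and on chromosome 4 from 27520536 to 27524047 they were 14.6, 27.4 and 29.9. At both, as at the first, GL×TQ carried a level near those of GL and TQ.

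Among the 10 regions lowest under the lower parent, the level was 9.74 to 17.9 in GL×93-11, 24.0 to 33.7 in GL and 18.7 to 29.9 in 93-11, again a description of what chose them. The ratios to the lower parent ran from 0.475 to 0.643, and the counting intervals were apart from both parents in 10 of 10. None of the 10 had an H3K27me3 peak in GL×93-11, GL or 93-11, against 9.56% of all 7194 regions. Each had a peak in TQ and in GL×TQ, as did 94.9% and 95.9% of all regions. At 3 of the 10 GL×TQ was also over 20% below the mean of its own parents and below both, on chromosome 3 from 34771145 to 34773758, chromosome 2 from 28887989 to 28890494 and chromosome 3 from 20871091 to 20874425. On chromosome 2 the level was 13.9 in GL×93-11 and 12.7 in GL×TQ, against 27.0 in GL, 22.0 in 93-11 and 22.9 in TQ. Across the 7463 regions with a peak in GL×TQ, GL and TQ, 3.66% were in that class. Those regions were merged from these lists, so no peak extends beyond its region, which can occur at the 10. The GL library helped to choose the 10 regions and is also in the mean of GL and TQ. At 79 of all 208 regions below both parents the interval of the hybrid stood apart from both parental ones. In all 7194 regions it stood below both parental ones at 134 (1.86%), 55 of which were near the mid-parent level.

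**Figure D4:**
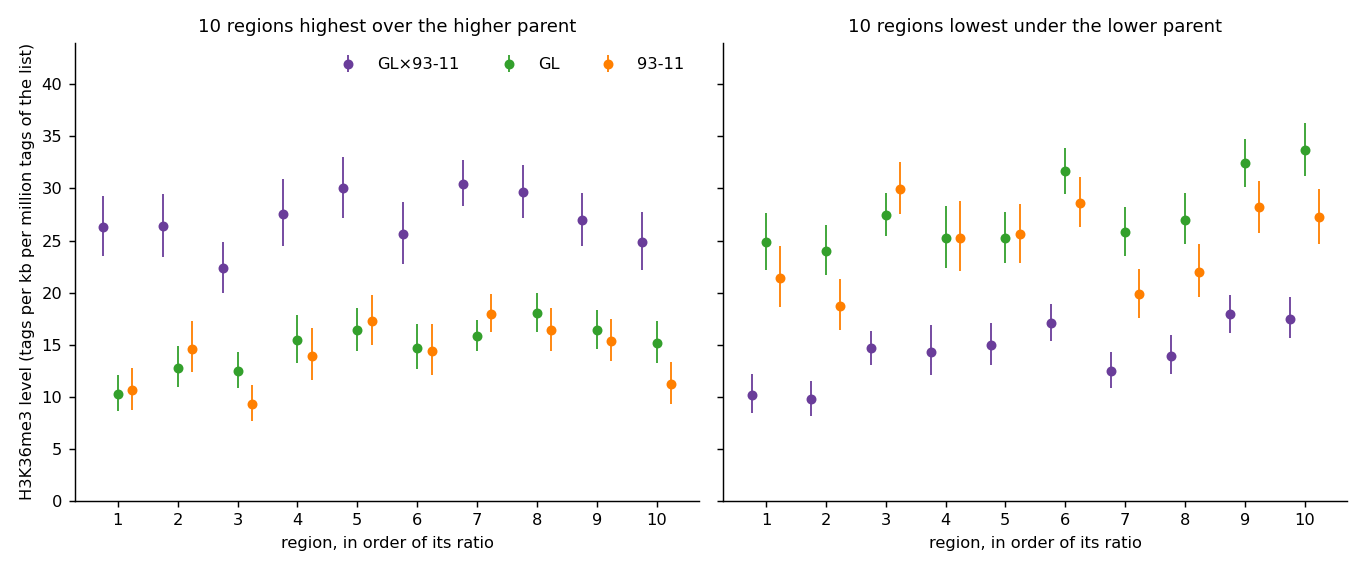
H3K36me3 level (tags per kb of region, scaled to 1000000 tags of the list) in GL×93-11, GL and 93-11 at the 10 regions highest over the higher parent (left) and the 10 lowest under the lower parent (right), with exact 95% Poisson intervals as bars. GL×93-11 lies between 22.3 and 30.4 on the left and between 9.74 and 17.9 on the right, outside the intervals of both parents in each region.

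Peak width is a factor of the level that chose these classes, since a level is the tags per kb of the called peak times its width over the length of the region, so the widths are a description. The peak of GL×93-11 was the widest of the 3 at 223 of the 247 regions above both parents (90.3%), against 17.3% of all regions, and the narrowest at 175 of the 208 below both (84.1%), against 22.8% of all. At the first region above, the peak was 1963 bp wide in GL×93-11, 1009 bp in GL and 953 bp in 93-11, and at the first region below it was 877 bp in GL×93-11, 1839 bp in GL and 1840 bp in 93-11. The median ratio of the width in GL×93-11 to the mean parental width was 1.26 above, 0.763 below and 0.996 over all regions. Tags per kb of the list's own peaks differed less, with a median ratio to the parental mean of 1.11 above, 0.944 below and 0.977 over all regions.

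Measured per kb of own peak, GL×93-11 lay near the parental mean at 7151 regions (99.4%), with 33 above and 10 below both parents. Of the 247 regions above both parents 23 kept their class and 158 still exceeded both by some amount. Of the 208 below both, 2 kept their class and 106 were still below both by some amount. By this measure 1080 of all 7194 regions (15.0%) exceeded both parents by any amount, and 2735 (38.0%) were below both. Being below both was thus common among all regions. At the region on chromosome 1 from 21714114 to 21716076 the tags per kb of own peak were 26.3 in GL×93-11, 20.0 in GL and 21.9 in 93-11. On the log2 scale, the width of the peak departed from the parental mean by more than the tags per kb of own peak at 184 of the 247 regions above both parents, at 188 of the 208 below both and at 53.9% of all regions. Among the 4941 regions whose widest and narrowest peak differed by at most 25%, 98.1% were near the mid-parent level, with 59 above and 33 below both parents. What part a called edge that shifts with depth or background has in this was not tested.

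**Figure D5:**
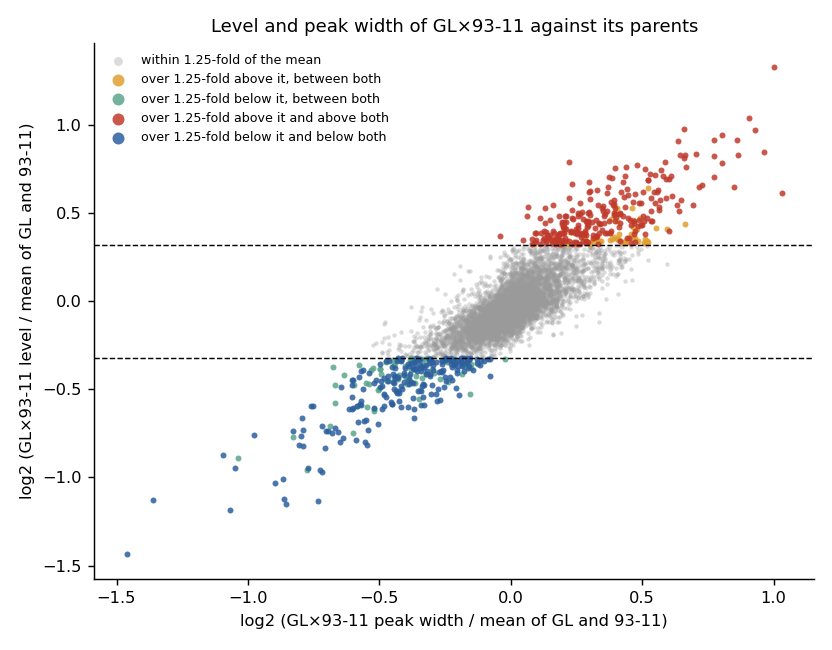
Each of the 7194 regions by log2 of the GL×93-11 peak width over the mean parental width (x axis) and log2 of the GL×93-11 level over the mid-parent level (y axis), with dashed lines at the limits and colors for the classes. Regions above both parents (red) lie almost all to the right of equal width, with a median width ratio of 1.26, and regions below both (blue) to the left, with a median of 0.763.

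Regions of few tags held most of the departures. Of the 1799 regions with the fewest tags averaged over the 3 lists, 78.4% were near the mid-parent level, 10.7% above both parents and 6.73% below both, and of the 1799 with the most tags these shares were 99.7%, 0.0556% and 0.278%. Regions above both parents had a median length of 2011 bp, those below both 2546 bp and all regions 2959 bp. Their medians were 367 tags in GL×93-11, 292 in GL and 214 in 93-11 for the regions above, and 291.5, 523.5 and 322 for those below. The 5 regions of highest mean level with 1 peak and at least 100 tags in each list were near-equal in the hybrid and its parents, with ratios of GL×93-11 to the mid-parent level from 0.940 to 1.08. The highest of the 5, on chromosome 6 from 18952488 to 18953713, had 612 tags in GL×93-11, 727 in GL and 420 in 93-11, with levels of 79.7, 83.6 and 63.9.

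H3K27me3 lay over a higher share of the regions above both parents than of all regions. A peak of this mark in at least 1 of GL×93-11, GL and 93-11 touched 25.1% of the 247 regions above both parents (20.1% to 30.9%), 9.13% of the 208 below both (5.93% to 13.8%) and 9.56% of all regions. Of the regions between the parents but outside the limits, it touched 17.0% on the higher side (9.20% to 29.2%) and 15.8% on the lower side (9.27% to 25.6%), and these wide intervals include the share of all regions and overlap that of the regions above both parents. By genotype, the share among the 247 was 17.0% for H3K27me3 of GL×93-11, 21.1% for that of GL and 17.4% for that of 93-11. Over all regions these shares were 6.27%, 7.27% and 6.53%. The regions with H3K27me3 were above both parents in 9.01% of cases, against 2.84% of those without. Depth moved with this: 325 of the 688 regions with H3K27me3 were among the 1799 with the fewest tags. Within those, 15.1% of the regions with H3K27me3 and 9.70% of those without were above both parents, and within the next 1798 these shares were 7.32% and 2.33%. What part the low tag counts have in the excess was otherwise not tested, and in pooled leaves both marks in the same cells and each mark in different cells cannot be told apart.

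All 12 chromosomes held regions of both kinds. The share near the mid-parent level ran from 93.7% on chromosome 5 to 90.1% on chromosome 11. Regions above both parents made up 5.57% on chromosome 10 (3.67% to 8.37%) and 1.96% on chromosome 3 (1.24% to 3.07%), and regions below both made up 3.70% on chromosome 3 and 2.01% on chromosome 5. Regions of both kinds were scattered along the chromosomes. Of the 313 windows of 1 Mb with at least 10 of the regions, 160 had none above and 171 none below both parents, and no window had more than 4 of either kind. The window with most regions above both was chromosome 4 from 18000001 to 19000000, with 4 of 23, and the one with most below both was chromosome 3 from 5000001 to 6000000, with 4 of 35. On chromosome 11 from 20000001 to 21000000, 3 of 12 regions were above both, among them the one from 20336431 to 20340316, with 741 tags in GL×93-11, 437 in GL and 374 in 93-11.

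The limits cut through a continuous distribution. The region just inside it on the upper side, on chromosome 1 from 41383219 to 41385755, had 376 tags in GL×93-11, 331 in GL and 265 in 93-11, a ratio to the mid-parent level of 1.249. The first outside and above both parents, on chromosome 6 from 30325003 to 30327035, had 414, 337 and 312 tags in the same order, a ratio of 1.251. On the lower side, a region on chromosome 11 from 2200704 to 2204056 was just inside, with 527 tags in GL×93-11, 773 in GL and 543 in 93-11. One on the same chromosome from 2560805 to 2564443 was just outside, with 683, 1046 and 671 tags.

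Requiring a peak in all 3 lists left out 5242 merged regions. GL×93-11 had a peak at 1201 of them together with GL alone, at 1180 together with 93-11 alone and at 536 without either parent, and both parents had one without the hybrid at 320. The peaks shared with GL alone were narrow, with medians of 1450 bp and 233 tags in GL×93-11, and those shared with 93-11 alone were wide, with medians of 3118 bp and 785.5 tags in GL×93-11. The longest peak was 4384 bp in GL×93-11, 4394 bp in GL and 4348 bp in 93-11. A region without a listed peak need not be a region without the mark, and no level can be given for it.

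The other hybrid and the other mark were set against their mid-parent levels by the same rule. GL×TQ was near the mean of GL and TQ for H3K36me3 at 91.5% of 7463 regions, with 1.88% above and 3.66% below both parents, against 3.43% and 2.89% in GL×93-11. The balance in GL×93-11 turned with the library total, with 2.99% above and 3.31% below both when unique mapped reads were used. For H3K27me3, GL×93-11 was near its mid-parent level at 81.6% of 5721 regions, with 11.5% above and 2.81% below both. The GL library is common to both hybrids, and none of these gaps was tested.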

How the data were processed

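Leaf ChIP-seq libraries of H3K36me3 from GL×93-11, GL and 93-11 were analysed, with the other 7 libraries of the series for comparison. The authors mapped 49 bp reads with SOAP2, allowing 2 mismatches, to Nipponbare from Gramene and called peaks per library with MACS 1.4.0 at p = 1e-05 (genome build: not given in the sources used here). Their text on peak calling names no input control. Per the file headers the deposited lists give tag counts and fold enrichment, a ratio. A deposited column without heading was read as the score, 10 times the negative log10 of the p-value.

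Regions, levels and classes were computed as given with the results, and the calculation was tested on simulated data. The simulated lists had equal peak widths, so that test did not cover peaks called at unequal widths. Named were the 10 regions highest over the higher and 10 lowest under the lower parent, 5 each with the largest parental difference in either direction and the 5 of highest mean level, with 1 peak and at least 100 tags in each list. Also given are regions nearest the limits. The members and lists were chosen with earlier results of these data known; the split by TQ was added after values had been seen. Genes and sequences were not placed, since no annotation of this build was used. Alternatives covered the library total, peak threshold, merging, region length, measure, tag minimum, kind of mean and fold limit. Scripts ran under Python 3.11.15 with pandas 2.3.3 and numpy 2.4.6, intervals came from scipy 1.17.1, and figures were drawn with matplotlib 3.10.9.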

Additional observations from a re-analysis of the deposited data

Results flagged for a closer look

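Among the regions named over the higher or under the lower parent, 1 lay outside the limits in opposite directions in the hybrids. Another, on chromosome 11 from 5029001 to 5030616, had log2 ratios of -0.82 in GL×93-11 and 0.21 in GL×TQ. There GL×TQ lay between GL and TQ and inside the limits. Other regions were not searched for this. At the first of these, on chromosome 1 from 14743564 to 14745759, the log2 ratio to the mid-parent level was 0.84 in GL×93-11, above both GL and 93-11. In GL×TQ it was -0.52, below both GL and TQ. The levels were 30.0 in GL×93-11 and 15.8 in GL×TQ, against 16.4 in GL, 17.2 in 93-11 and 28.9 in TQ. Each value comes from 1 library, GL is common to both ratios, and the difference was not tested. The TQ and GL×TQ levels count all tags of any of their peaks touching the region, also where a peak extends beyond it.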

How the results depend on the processing

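No paired analysis was possible because each genotype has 1 library, and for the same reason no library could be left out. The share near the mid-parent level was 62.8% with limits of 1.1-fold and 90.8% to 99.4% under the other 13 alternatives. Counts above both parents, below both parents and between them but far from the mean were, in this order, 620, 1226 and 830 at a limit of 1.1-fold; 59, 53 and 10 at 1.5-fold; 101, 76 and 33 with peaks of a score of at least 100; 33, 10 and 0 per kb of own peak; 45, 81 and 3 by the authors' fold enrichment; 59, 33 and 2 at peaks of similar width; and 63, 6 and 0 per kb of own peak with the tags in the shared regions as total. The last 2 settings were added after values had been seen. With at least 200 tags per list, 121 were above, 149 below and 64 between, which turned the order of above and below. Unique mapped reads, with 215 and 238, the limit of 1.1-fold and the fold enrichment also turned it.

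The median log2 ratio was -0.072 with unique mapped reads, -0.00026 with the tags in the shared regions, -0.037 with the stricter score, -0.033 per kb of own peak, -0.020 by fold enrichment, -0.061 with 200 tags, -0.042 with the geometric mean, -0.057 at similar widths and 0.012 per kb of own peak with the shared total. The median position at regions higher in GL was 0.49 with unique reads, 0.68 with the shared total, 0.58 with the stricter score, 0.56 per kb of own peak, 0.50 with 200 tags and 0.75 with both changes. At regions higher in 93-11 it was 0.67 with the stricter score, 0.56 per kb of own peak, 0.39 by fold enrichment and 0.59 with both changes.

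The log2 ratio changed sign in 16 of 194 recomputed values of the regions named over the higher or under the lower parent, and in 22 of 155 of the other named regions, which lie near the mid-parent level or between the parents. Per kb of own peak, regions 7 and 8 over the higher parent had -0.11 and -0.035, and regions 5, 7 and 9 under the lower parent 0.029, 0.20 and 0.22. By fold enrichment, regions 2, 3 and 7 over the higher parent had -0.022, -0.0022 and -0.25, and region 5 under the lower parent 0.012. With both changes, regions 7 and 8 over the higher parent had -0.073 and -0.0011, and regions 5 to 9 under the lower parent 0.065, 0.012, 0.23, 0.040 and 0.27. The numbers are ranks by ratio. The stricter score left 24 of the 35 named regions without a value, 200 tags 17 and similar widths 30. The cause of these shifts was not tested.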
